A study of Mus musculus with 15 samples.

Results

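Collagen chain genes encode the alpha chains that wind around each other to form collagen molecules. They were taken as every gene entry of the count table whose symbol reads Col, a number, the letter a and a number, kept where the level was above 0.366 CPM, the count of a gene scaled to the size of the library, in at least 3 of the 15 tumors. The name pattern matched 44 of the 32543 gene entries, and 38 of these chains passed the filter, among 15494 genes that did so in all. The 6 chains that did not pass were Col4a3, Col4a6, Col9a1, Col9a2, Col10a1 and Col19a1. Nearest to the limit, Col2a1 exceeded the minimum in 3 tumors and passed, and Col4a3 exceeded it in 2 tumors and did not. Such sparse chains can pass through the group in which they are high.

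The tumors were WEHI-164 fibrosarcomas, a mouse tumor line of fibroblast origin, grown under the skin of wild-type female BALB/c mice. Treated tumors received poly(I:C), a synthetic double-stranded RNA, by injection into the tumor once a day for up to 6 doses, labelled as 1 µg a day, and are labelled by harvest as day 1, day 3, day 5 or day 7. A legend in the supplement of the study gives a higher daily dose, so the dose is uncertain. Tumors labelled day 0 had no treatment, and vehicle-treated tumors of the later days were not analysed here. Each harvest day had 3 tumors from 3 mice in an experiment that was done once and p-values measure the spread between these tumors. The tissue is a mixture of tumor cells and host cells from which surrounding tissue had been trimmed, so that a lower level may mean fewer cells of a type or less RNA per cell, which cannot be told apart here.

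Collagens differ in what their trimers build. Fibrillar chains, above all those of types I, III and V, form the fibers that give connective tissue its strength, and fibril-associated chains coat and link such fibers. Type IV chains form the sheet of the basement membrane, which underlies vessels and epithelia, and type VI chains form beaded filaments between that sheet and the fibers. Fibroblasts, and tumors of fibroblast origin, are a main source of the fibrillar and type VI chains, and endothelial cells and pericytes make much of the type IV.

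Total counts per tumor ranged from 23713090 to 31913106, and a limit of 3 counts corresponded to between 0.094 and 0.127 CPM. The edgeR quasi-likelihood test on all 15 tumors called 0 of 15494 genes (0.0%) at an adjusted p under 0.05 in any of the 5 pairwise comparisons described here or over the 4 treated days jointly. One library, day 3 replicate 1, stood apart from the rest on the first principal component, which carried 57.4% of the variance: its score was 144, where the other tumors lay between -77.0 and 45.1. Day 3 values that turn sign or lose their size without it are therefore given both ways. Its counts also held many transcripts of other tissues, which are described with the marker genes at the end.

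The tumors used a narrow set of chains. Compared per kilobase of the longest annotated transcript, so that long and short genes could be set side by side, Col3a1, the single chain of type III, led with a median of 375 CPM per kilobase over the 15 tumors. Col1a1 followed with 133, and Col6a1, Col1a2 and Col6a3 came next at 92.5, 91.8 and 84.3 CPM per kilobase. These 3 values lay too close together to be ordered: the CPM of Col1a2 alone spanned 34.7-fold between the lowest and the highest tumor. Col18a1, Col5a2 and Col5a1 had medians of 73.0, 61.3 and 58.5 CPM per kilobase. Col12a1 ranked 16 of the 38 chains at 11.7 CPM per kilobase, and below it the level dropped to 4.77 for Col15a1. Among the sparse ones were the cartilage fibril chains Col2a1 and Col11a1, at 0.04 and 0.03 CPM per kilobase, while Col11a2 stood at 1.34.

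Together the 44 chains took 0.822% ± 0.054 of all counts on day 0 (SD, n = 3). On day 1 they took 0.820% ± 0.128, on day 5 0.838% ± 0.361 and on day 7 0.662% ± 0.099 (SD, n = 3 each). The day 3 mean of 1.59% ± 1.53 came from 1 tumor. Day 3 replicate 1 had 3.35% of its counts in collagen chains (95% Wilson interval 3.34 to 3.36, counting error only), and the other 2 day 3 tumors had 0.758% and 0.652%, both under the lowest day 0 tumor at 0.777%. Day 5 replicate 1, at 1.25%, was the second highest of all, and the lowest tumor was day 7 replicate 3 at 0.560%. Types I and III made up 73.7% of the collagen counts in day 3 replicate 1 and 60.9% in day 5 replicate 1, against 33.6% to 46.8% on day 0. Day 1 replicate 3 was also above that span, at 56.4%. So were day 3 replicates 2 and 3 and day 7 replicate 2, at 49.4%, 47.7% and 48.6%. The other 41 chains varied less, from 0.336% to 0.880% of all counts.

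**Figure D1:**
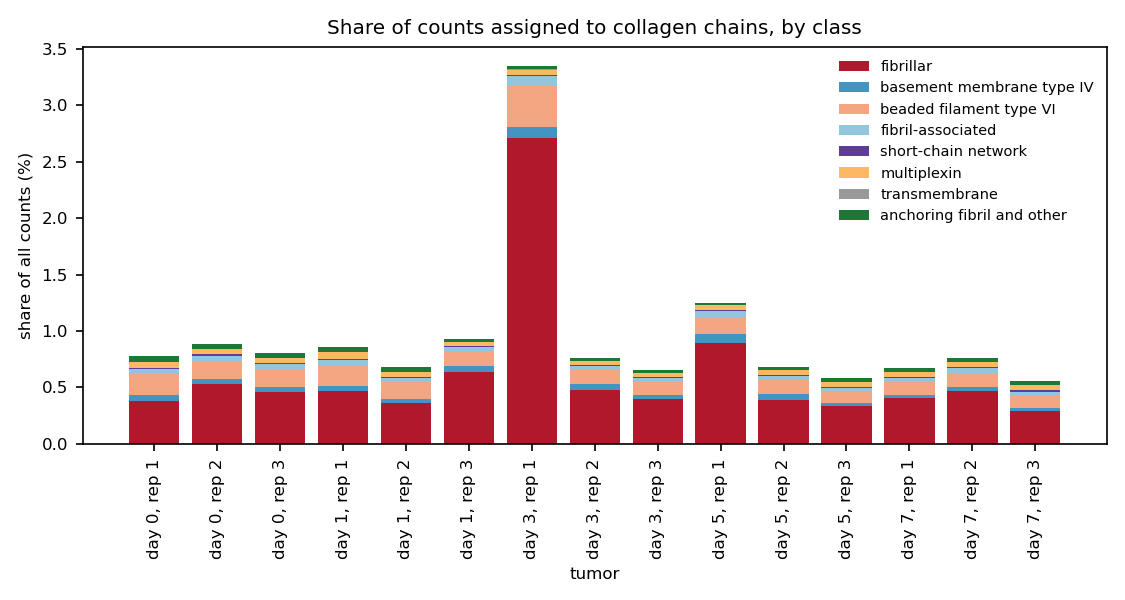
Stacked bars give the share of all counts (%, vertical axis from 0) assigned to the collagen chains in each of the 15 tumors, colored by class of chain. Day 3 replicate 1 reaches 3.35% and day 5 replicate 1 reaches 1.25%, while the other 13 tumors lie between 0.560% and 0.925%, and fibrillar chains fill most of every bar that stands out.

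The pattern of single chains followed the same tumors. Day 3 replicate 1 was the highest of the 15 tumors for 26 of the 38 chains, and day 5 replicate 1 was second for 18. Day 7 replicate 3 was the lowest for 14 chains. The same ranks were not taken over all genes, so these counts do not show a trait particular to the chains.

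**Figure D2:**
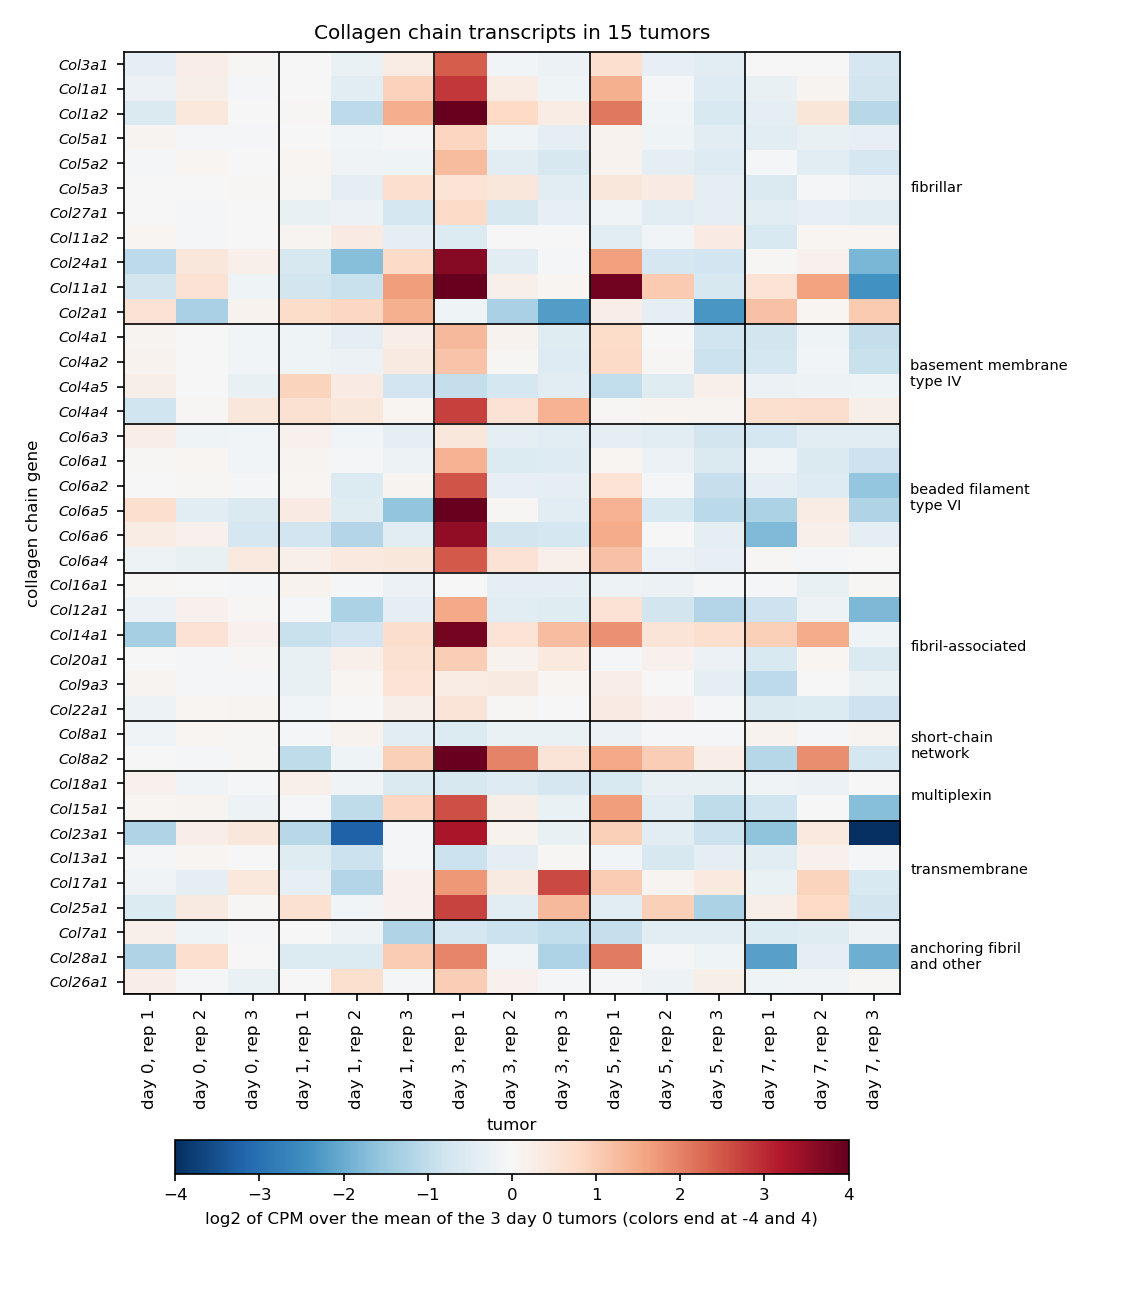
Each cell gives log2 of a tumor's CPM over the mean of the 3 day 0 tumors, for the 38 collagen chains (rows, grouped by class) in the 15 tumors (columns), with colors ending at -4 and 4. Day 3 replicate 1 and day 5 replicate 1 appear as red columns, whereas Col7a1, Col18a1, Col8a1 and Col4a5 are blue in all 3 day 3 tumors.

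Among the fibrillar chains, Col3a1 (chromosome 1, 45311538 to 45349706, build GRCm38, 51 exons) had 1611, 2513 and 2188 CPM in the day 0 tumors and 2120, 1738 and 2564 CPM on day 1. The day 3 tumors had 11173, 1936 and 1793 CPM, the day 5 tumors 3372, 1682 and 1542 CPM, and the day 7 tumors 2111, 2089 and 1323 CPM. Apart from the first tumor of days 3 and 5, all tumors lay within the span from 1323 to 2564 CPM. The fitted log2 fold change on day 3 against day 0 was 1.24 ± 0.59 (SE; unadjusted p = 0.0566, adjusted p = 0.176 by edgeR) and was -0.17 without day 3 replicate 1.

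Type I collagen, the main fiber of skin, tendon and bone, is built from Col1a1 and Col1a2 chains. Col1a1 (chromosome 11, 94936224 to 94953042) had 695, 946 and 789 CPM on day 0 and 5815, 986 and 721 CPM on day 3. Col1a2 (chromosome 6, 4504814 to 4541544) had 315, 633 and 465 CPM on day 0 and 7625, 826 and 583 CPM on day 3. In both genes the first day 3 tumor was far above all others, 2.65 and 3.72 times the next highest tumor, and of the remaining day 3 tumors 1 lay within the day 0 span and 1 slightly above it. The log2 fold changes on day 3 were 1.63 ± 0.72 for Col1a1 and 2.68 ± 1.03 for Col1a2 (SE; unadjusted p = 0.0420 and 0.0229, adjusted p = 0.157 and 0.131 by edgeR), and without day 3 replicate 1 they were 0.08 and 0.58. On day 7 the values of Col1a2 were 365, 664 and 220 CPM, with 1 tumor within, 1 above and 1 below the day 0 span.

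Type V chains, which set the diameter of type I fibers, moved less. Col5a1 had log2 fold changes between -0.35 on day 7 and 0.21 on day 3, Col5a2 between -0.38 and 0.33 on the same days, and Col5a3 between -0.27 and 0.26. Without day 3 replicate 1 the day 3 values were -0.28 for Col5a1, -0.51 for Col5a2 (unadjusted p = 0.0265) and 0.10 for Col5a3. Their day 7 levels nevertheless lay below every day 0 tumor: Col5a1 had 402, 436 and 423 CPM on day 7 against 581, 507 and 514 CPM on day 0. For Col5a2 the day 7 tumors had 426, 328 and 279 CPM against 429, 470 and 441 CPM. The first of these day 7 values fell short of the lowest day 0 tumor by a narrow margin. Col27a1, another fibrillar chain, had log2 fold changes of -0.40, 0.06, -0.32 and -0.41 in order of harvest, where the day 3 value was -0.47 without day 3 replicate 1 (unadjusted p = 0.00668). Its 3 day 1 tumors (27.9, 28.9 and 21.1 CPM) were below the 3 day 0 tumors (35.0, 33.4 and 34.4 CPM).

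The remaining fibrillar chains were sparse. Col24a1 and Col11a1 reached 24.3 and 4.59 CPM in day 3 replicate 1 and had log2 fold changes of 2.24 and 2.90 on day 3, which became -0.25 and 0.14 without it. Col11a1 was also at 3.22 CPM in day 5 replicate 1. Col11a2, a partner of Col11a1 in cartilage, had log2 fold changes between -0.17 and 0.06 in all 5 comparisons. Col2a1, the type II chain of cartilage, rested on 1 to 15 counts per tumor and had 8, 2 and 5 counts on day 0, 4, 2 and 1 on day 3 and 10, 5 and 9 on day 7, so no fold is given for it.

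**Figure D3:**
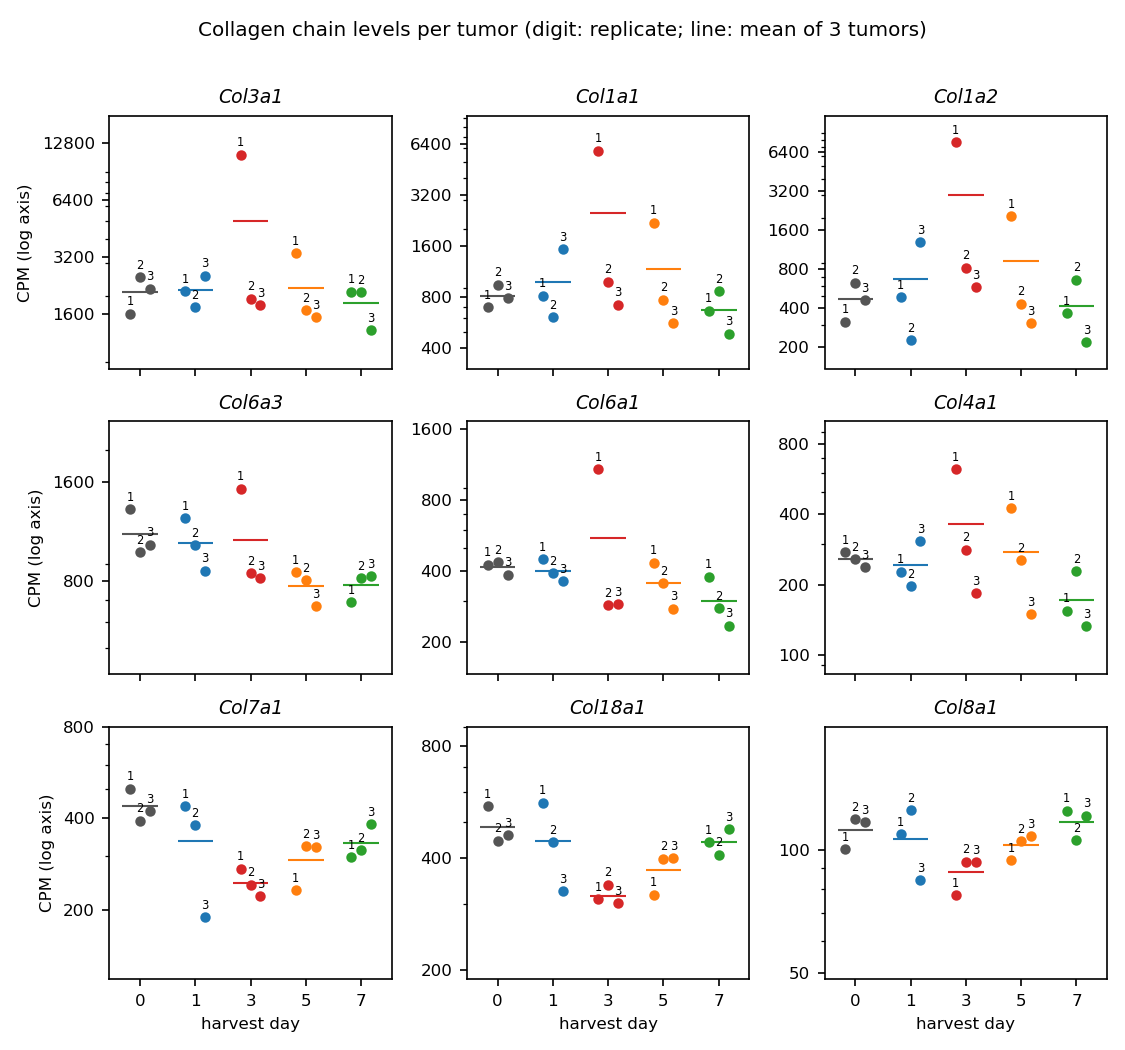
Points give CPM (log axis) for 9 collagen chains by harvest day, each point 1 tumor marked with its replicate number, and the line is the mean of the 3 tumors. The day 3 points of Col3a1, Col1a1, Col1a2 and Col6a1 hold 1 tumor far above the other 2, whereas those of Col7a1, Col18a1 and Col8a1 lie close together below the day 0 points.

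In the basement membrane group, Col4a1 and Col4a2 carried nearly all the counts. Col4a1 had 275, 257 and 237 CPM on day 0, 628, 282 and 183 CPM on day 3 and 155, 229 and 133 CPM on day 7. Col4a2 had 201, 181 and 169 CPM on day 0, 404, 189 and 128 CPM on day 3 and 114, 170 and 98.6 CPM on day 7. The 3 day 7 tumors of Col4a1 were below all day 0 tumors, while for Col4a2 the second day 7 tumor, at 169.6 CPM, sat beside the lowest day 0 tumor, at 169.4 CPM. The day 7 log2 fold changes were -0.58 ± 0.43 and -0.53 ± 0.42 (SE; unadjusted p = 0.203 and 0.235), within the spread between tumors. On day 3 Col4a1 had a log2 fold change of 0.51, which turned to -0.14 without day 3 replicate 1.

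These 2 genes lie head to head on chromosome 8, Col4a1 on the minus strand (11198423 to 11312826) and Col4a2 on the plus strand (11312805 to 11449287), and their annotated starts overlap by 22 bases. Because the pair kept the steadiest ratio of all pairs examined, the stretch at their starts is shown, on the plus strand of GRCm38.p6 from RefSeq at chr8:11312801-11312830, with the 22 bases that lie after both annotated starts in capitals and 4 bases on either side.
Col4a1 and Col4a2: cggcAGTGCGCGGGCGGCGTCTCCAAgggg
The transcripts are 6615 and 6450 bases long. The strand setting was not given, and how reads that overlap those 22 bases were assigned was not examined. The log2 ratio of Col4a1 to Col4a2 averaged 0.47 with an SD of 0.075 over the 15 tumors and ran from 0.34 in day 1 replicate 2 to 0.63 in day 3 replicate 1, although each gene alone had an SD of 0.58 and 0.56 in log2 CPM.

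The other type IV chains were scarce. Col4a4, which also lies head to head with its partner Col4a3, had 0.27, 0.48 and 0.64 CPM on day 0 and 3.10, 0.70 and 1.21 CPM on day 3, so all day 3 tumors were above all day 0 tumors. Its log2 fold change of 1.84 ± 0.49 (SE; unadjusted p = 0.00258, adjusted p = 0.115 by edgeR) was the one of lowest p among the chains, and it was 1.04 without day 3 replicate 1. The untreated tumors held 8 to 16 counts of it. Col4a3 was under the filter but had its highest value, 1.45 CPM, in the same tumor. Col4a5, an X-linked chain, had 7.89, 6.66 and 5.48 CPM on day 0 and 3.46, 4.08 and 5.02 CPM on day 3, and the 2 groups did not overlap (log2 fold change -0.67 ± 0.37, SE, unadjusted p = 0.0945).

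The 3 classical chains of type VI, which combine with each other, differed among themselves. Col6a3 (chromosome 1, 90765923 to 90843971), the large chain that is trimmed to release endotrophin, had 1322, 977 and 1030 CPM on day 0 and 1523, 843 and 816 CPM on day 3. It then had 852, 803 and 670 CPM on day 5 and 689, 816 and 825 CPM on day 7, all below every day 0 tumor. The log2 fold changes were -0.52 ± 0.23 on day 5 and -0.51 ± 0.23 on day 7 (SE; unadjusted p = 0.0440 and 0.0452, adjusted p = 0.859 and 1.0 by edgeR). Leaving out day 3 replicate 1 left these at -0.50 and -0.50, with unadjusted p of 0.00646 and 0.00653.

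Col6a1, with 426, 437 and 386 CPM on day 0, had 379, 279 and 235 CPM on day 7, and Col6a2, with 157, 164 and 150 CPM, had 120, 110 and 53.3 CPM. Both were thus below all untreated tumors on day 7, with log2 fold changes of -0.48 and -0.73 (unadjusted p = 0.265 and 0.284). In day 3 replicate 1 the 2 genes reached 1080 and 888 CPM, 2.40 and 3.87 times the next highest tumor. The newer chains Col6a5 and Col6a6 were at 0.45 to 4.57 CPM in the other 14 tumors and at 36.5 and 17.9 CPM in day 3 replicate 1, which was 7.98 and 4.25 times the second highest tumor. Their day 3 log2 fold changes of 2.91 and 2.11 became -0.18 and -0.71 without it. For Col6a4 the change was 1.43 and then 0.40.

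Among the fibril-associated chains Col14a1, which binds type I fibers and decorin, was highest in day 3 replicate 1 at 218 CPM. Its day 0 values were 6.07, 22.7 and 17.2 CPM, the other 2 day 3 tumors had 22.6 and 36.0 CPM, and day 7 had 29.4, 43.0 and 13.5 CPM. The groups overlapped, and the day 3 log2 fold change was 2.59 ± 0.85 (SE; unadjusted p = 0.00949, adjusted p = 0.115 by edgeR), or 0.94 without that tumor. Col12a1, found in dense tissue under tension, had log2 fold changes of -0.50, 0.51, -0.23 and -0.80 on days 1, 3, 5 and 7, none with an unadjusted p under 0.2. The day 3 value was -0.48 without day 3 replicate 1, since that tumor had 503 CPM and the other 2 had 128 and 126 CPM, below the day 0 tumors. Col16a1, highest of the class by mean CPM, had the smallest ratio of highest to lowest tumor of all 38, with 166 to 238 CPM in the 15 tumors. Col20a1 and Col9a3 stayed under 9 CPM, and Col20a1 was higher in all day 3 tumors (8.01, 4.45 and 5.25 CPM) than on day 0 (4.04, 3.83 and 4.16 CPM).

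Col22a1, a chain of tissue junctions, gave the lowest p on day 7. It had 2.39, 2.90 and 2.96 CPM on day 0 and 1.83, 1.90 and 1.55 CPM on day 7, with no overlap. The log2 fold change was -0.64 ± 0.22 (SE; unadjusted p = 0.0116, adjusted p = 1.0 by edgeR) and -0.63 without day 3 replicate 1. Against day 3, where it had 3.90, 2.87 and 2.72 CPM, it was lower by a log2 fold change of -0.84 ± 0.22 (SE; unadjusted p = 0.00205, adjusted p = 0.0832 by edgeR), the lowest p of any chain in that comparison, or -0.66 without day 3 replicate 1.

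A few chains ran the other way on day 3 and were lower in all 3 tumors. Col7a1 (chromosome 9, 108953586 to 108984875, 119 exons), which forms the anchoring fibrils that fasten epidermis to dermis, had 500, 393 and 421 CPM in the untreated tumors. It had 439, 379 and 189 CPM on day 1, 273, 242 and 222 CPM on day 3, 232, 324 and 321 CPM on day 5 and 298, 314 and 383 CPM on day 7. All 9 tumors of days 3, 5 and 7 were below all 3 of day 0, and these comparisons share the day 0 tumors. The log2 fold changes were -0.38, -0.84, -0.58 and -0.40 on days 1, 3, 5 and 7, and on day 3 the SE was 0.25 (unadjusted p = 0.0058, adjusted p = 0.115 by edgeR). Without day 3 replicate 1 the day 3 value was -0.92 (unadjusted p = 0.00758).

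Col18a1 (chromosome 10, 77052178 to 77166548), the basement membrane multiplexin whose end is cut off as endostatin, had 550, 445 and 461 CPM on day 0 and 310, 339 and 303 CPM on day 3. It had 319, 399 and 399 CPM on day 5, still below all untreated tumors, and 441, 408 and 478 CPM on day 7, where the groups overlapped. The log2 fold change was -0.61 ± 0.17 on day 3 (SE; unadjusted p = 0.00369, adjusted p = 0.115 by edgeR) and -0.38 ± 0.17 on day 5 (unadjusted p = 0.0449). It stayed at -0.59 on day 3 without replicate 1. The related multiplexin Col15a1 was high in single tumors only. It had 152, 30.0 and 21.4 CPM on day 3 and 81.4, 18.6 and 12.7 CPM on day 5, against 22.4 to 27.4 CPM on day 0. Its day 3 log2 fold change was 1.41, or 0.01 without day 3 replicate 1.

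Col8a1, a short chain of the sheets around vessels, was the third of these, with 100, 118 and 117 CPM on day 0, 77.3, 93.4 and 93.2 CPM on day 3 and 125, 105 and 121 CPM on day 7. Its log2 fold change was -0.35 ± 0.14 on day 3 (SE; unadjusted p = 0.0276) and 0.41 ± 0.14 on day 7 against day 3 (unadjusted p = 0.0118). Without day 3 replicate 1 these were -0.26 and 0.33 (unadjusted p = 0.0915 and 0.0361), so that Col8a1, unlike Col7a1 and Col18a1, lost the limit on day 3. Col8a2, its partner, was at 0.26 to 0.28 CPM on day 0 and at 4.19, 1.07 and 0.39 CPM on day 3. Day 3 replicate 1, which was highest for 26 chains, was the lowest of the 15 tumors for Col8a1.

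DESeq2, run as an alternative, called 6 chains on day 3 where it called 13.5% of all genes. They were Col7a1 and Col18a1 (adjusted p = 0.0286 and 0.0208), which were lower, and Col14a1, Col17a1, Col4a4 and Col8a2, which were higher. Chains without an adjusted p cannot be called. DESeq2 gave none to Col24a1 on days 1 and 3 and none to Col3a1 and Col6a5 on day 1. In the joint test it gave none to Col2a1, Col3a1, Col6a5 and Col24a1. It called 0 chains on day 3 once replicate 1 was left out, where Col7a1 and Col18a1 had an adjusted p of 0.0889 and 0.12 and the low counts of Col4a4, Col8a2 and Col17a1 gave no adjusted p. The limma voom fit with sample weights, which gave day 3 replicate 1 a weight of 0.072, called 4 chains on day 3 and 7.65% of all genes. These were Col7a1, Col18a1, Col16a1 and Col27a1, all lower (adjusted p = 0.0249, 0.0326, 0.0421 and 0.0456). Col7a1 and Col18a1 were thus the chains that both alternatives called on day 3. DESeq2 also called 10 chains on day 7 against day 3 and 2 jointly (21.0% and 7.84% of all genes), and voom called 10 jointly (24.9% of all genes).

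The transmembrane chains ranged widely. Col13a1 had 3.11, 2.13 and 2.62 CPM on day 5, all below the lowest day 0 tumor at 3.20 CPM. Col23a1 was highest in day 3 replicate 1 and lowest in day 7 replicate 3, at 0.21 CPM, the widest span among the 38 chains at 153-fold. Col17a1, a hemidesmosome protein of epithelia, had 0.57, 0.48 and 0.84 CPM on day 0 and 2.09, 0.81 and 3.93 CPM on day 3. Its highest tumor on day 3 was therefore replicate 3, and its day 3 log2 fold change was 1.84 ± 0.58 (SE; unadjusted p = 0.00719, adjusted p = 0.115 by edgeR) with replicate 1 and 1.90 without it. Col25a1 had a log2 fold change of 1.68, or 0.67 without replicate 1. Of the last chains, Col26a1 stayed between 1.32 and 3.18 CPM, and Col28a1, with 0.64 to 2.31 CPM on day 0, had 5.68 CPM in day 3 replicate 1 and 6.18 CPM in day 5 replicate 1.

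For 1 chain that was high in day 3 replicate 1 and 2 that were lower on day 3, the 250 bases before the annotated start are shown, read 5′ to 3′ on the strand of the gene (GRCm38.p6, RefSeq). The first is Col3a1 (plus strand, chr1:45311288-45311537). Col7a1 (plus strand, chr9:108953336-108953585) and Col8a1 (minus strand, chr16:57754738-57754987) are the lower ones. Capitals mark 4 motifs on either strand. The letters CCAAT are known as a box bound by NF-Y. The letters GGGCGG are the GC box bound by Sp1. The TATA box was searched as TATAAA. SMAD proteins are known to bind CAGACA.
Col3a1: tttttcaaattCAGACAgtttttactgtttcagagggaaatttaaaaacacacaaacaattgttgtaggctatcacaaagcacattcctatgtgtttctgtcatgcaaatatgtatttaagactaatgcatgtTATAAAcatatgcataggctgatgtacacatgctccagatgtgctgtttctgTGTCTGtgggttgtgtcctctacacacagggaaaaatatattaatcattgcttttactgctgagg
Col7a1: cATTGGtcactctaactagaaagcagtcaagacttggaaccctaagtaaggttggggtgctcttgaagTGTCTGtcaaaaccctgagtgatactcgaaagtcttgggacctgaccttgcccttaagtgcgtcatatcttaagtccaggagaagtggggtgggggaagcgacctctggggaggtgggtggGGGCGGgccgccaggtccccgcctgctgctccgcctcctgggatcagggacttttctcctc
Col8a1: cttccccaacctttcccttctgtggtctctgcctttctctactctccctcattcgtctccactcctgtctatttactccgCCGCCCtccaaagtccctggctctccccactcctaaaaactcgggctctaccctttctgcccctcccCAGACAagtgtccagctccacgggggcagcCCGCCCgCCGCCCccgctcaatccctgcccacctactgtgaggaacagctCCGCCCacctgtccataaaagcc
The stretch of Col3a1 holds TATAAA, those of Col7a1 and Col8a1 hold GGGCGG, and all 3 hold CAGACA. The GC box was also found for Col1a2, Col6a5 and Col23a1, which were high in day 3 replicate 1. Whether any of the 4 motifs goes with the day 3 values over the chains was not tested.

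RefSeq promoters were matched for 30 of the 38 chains, in 32 windows. GGGCGG on either strand stood in 20 of the 32 windows (62.5%) against 32.7% of the 32851 windows of the same length over 27025 annotated genes. CCAAT stood in 12 of the 32 windows (37.5% against 33.8%), TATAAA in 4 (12.5% against 12.4%) and CAGACA in 8 (25% against 17.1%). Unlike the chains, the 27025 genes were not limited to those that passed the filter, so the 2 sets are unlike and their shares are not a matched comparison. The letters GAAANNGAAA, as found at interferon-stimulated genes, stood in 0 of the 32 windows, where 2.98% of all windows held them. No searched motif contains another, and a match describes the letters of the window and nothing about the factor.

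Set beside all genes, the chains as a group were ordinary on day 1. Of the 38 chains 0 had an unadjusted p under 0.05 on day 1 (2.18% of all genes were higher and 0.981% lower by that rule). Day 1 tumors lay wholly above day 0 for 1 chain, Col2a1, and wholly below for 1, Col27a1 (5.76% and 6.61% of all genes). The median log2 fold change of the chains was -0.02, and that of all genes was -0.00024. The largest log2 fold changes, apart from Col2a1, were 0.54 for Col11a1, 0.51 for Col1a2, -0.96 for Col23a1 and -0.76 for Col6a6, each smaller than its SE.

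On day 3, 9 chains were higher and 3 lower at an unadjusted p under 0.05 (18.3% and 11.7% of all genes), and 0 passed after adjustment over all genes. The 9 were Col1a1, Col1a2, Col4a4, Col6a4, Col6a5, Col8a2, Col14a1, Col17a1 and Col25a1, and the 3 were Col7a1, Col8a1 and Col18a1. The groups did not overlap for 3 higher chains and 4 lower ones (19.4% and 19.0% of all genes), a smaller share than that of all genes in both directions. The median log2 fold change of the chains was 0.51 against -0.02 for all genes, and 29 of 38 were positive. Without day 3 replicate 1 the median was -0.16, 14 chains changed sign, and 9 chains had an unadjusted p under 0.05, of which 2 were higher and 7 lower (6.53% of all genes in each direction), the latter including Col5a2, Col6a1, Col6a3, Col16a1 and Col27a1. In both fits 4 chains passed that limit, namely Col4a4 and Col17a1, higher, and Col7a1 and Col18a1, lower. The shares of all genes that passed in both fits or changed sign were not taken. The 2 fits share every tumor but day 3 replicate 1.

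**Figure D4:**
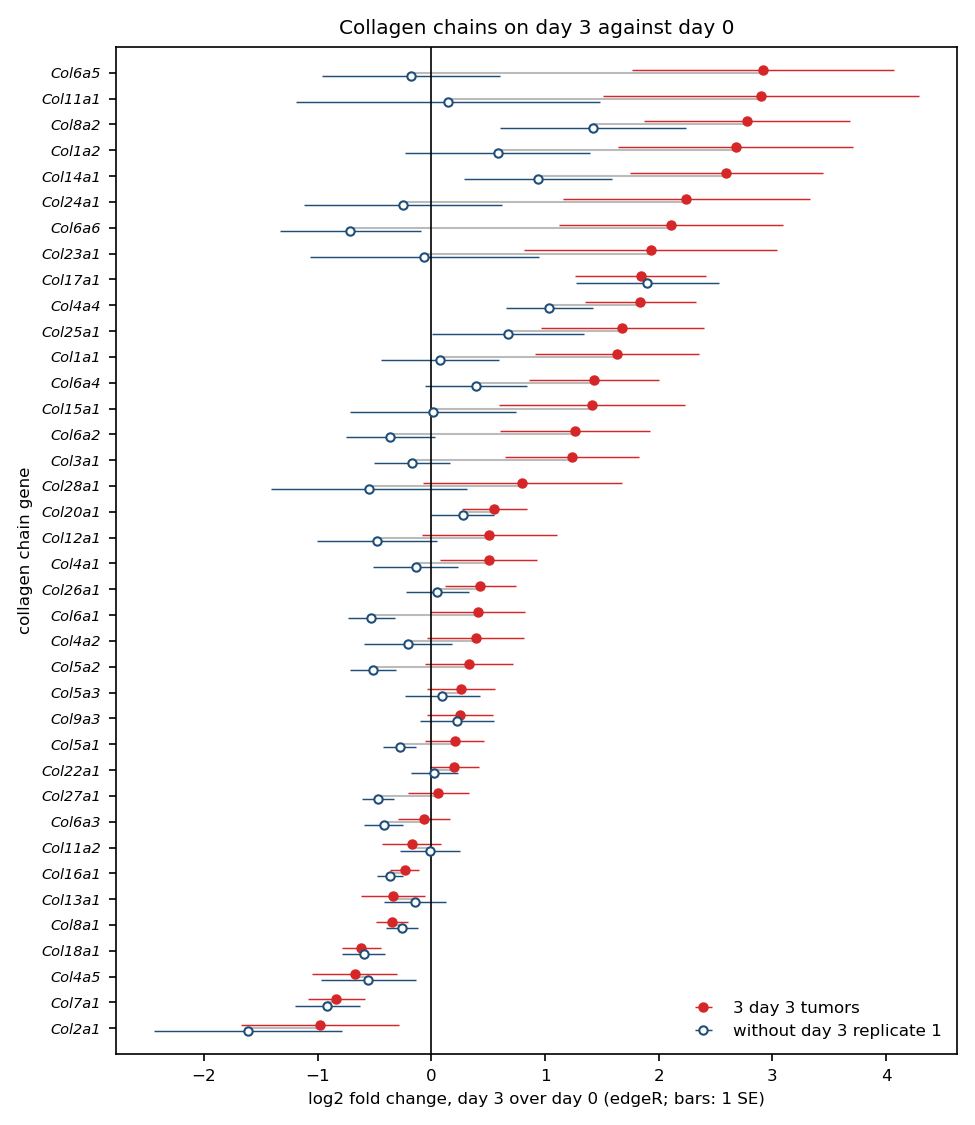
Points give the edgeR log2 fold change of day 3 over day 0 for each of the 38 chains with 3 day 3 tumors (red) and without day 3 replicate 1 (blue, open), and bars are 1 SE. The chains at the top move towards or past 0 when that tumor is left out, from 2.91 to -0.18 for Col6a5, while Col7a1, Col18a1 and Col17a1 keep their values.

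On day 5, 0 chains were higher and 3 lower at an unadjusted p under 0.05 (1.41% and 3.39% of all genes), namely Col6a3, Col7a1 and Col18a1. Day 5 tumors were wholly above day 0 for 1 chain, Col8a2, and wholly below for 5 (6.89% and 10.9% of all genes), which were Col6a3, Col7a1, Col13a1, Col18a1 and Col27a1. The median of the chains was 0.06, and the largest log2 fold changes were 2.49 for Col11a1 and 1.12 for Col14a1, both with day 5 replicate 1 far above the rest of the day. The voom fit called Col6a3, Col7a1, Col13a1 and Col27a1 on day 5 (adjusted p = 0.0256, 0.0434, 0.0399 and 0.0212) and 15.9% of all genes, and edgeR and DESeq2 called 0.

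On day 7 more chains had negative than positive values. Their median was -0.28 on the log2 fold scale against -0.02 for all genes, and 9 of 38 were positive. For 10 chains all day 7 tumors lay below all day 0 tumors and for 0 chains above (6.26% and 5.02% of all genes). These 10 were the type V chains Col5a1, Col5a2 and Col5a3, the type VI chains Col6a1, Col6a2 and Col6a3, and Col4a1, Col7a1, Col22a1 and Col27a1. By p, however, 0 were higher and 2 lower, Col6a3 and Col22a1, at an unadjusted p under 0.05 (1.05% and 1.02% of all genes), and the adjusted p was 1.0 for both. The differences were small, with log2 fold changes from -0.27 to -0.73 for the 10 chains. Without day 3 replicate 1, whose spread enters the fit, 5 chains had an unadjusted p under 0.05 on day 7, 0 higher and 5 lower (2.85% and 1.95% of all genes), namely Col5a1, Col6a1, Col6a3, Col22a1 and Col27a1. The largest log2 fold changes, apart from Col2a1, at -1.24 for Col28a1, -0.80 for Col23a1 and 0.91 for Col14a1, had SEs of 0.92, 1.11 and 0.81.

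Day 7 was also set against day 3. At an unadjusted p under 0.05, 3 chains were higher on day 7 than on day 3 and 17 lower (12.9% and 22.6% of all genes), and the groups did not overlap for 5 chains in each direction (14.6% and 18.4% of all genes). The 5 that were higher on day 7 were Col2a1, Col4a5, Col7a1, Col8a1 and Col18a1, and the 5 that were lower were Col6a2, Col6a4, Col9a3, Col20a1 and Col22a1. The largest difference was that of Col6a5, at a log2 fold change of -3.44 ± 1.18 (SE; unadjusted p = 0.0126, adjusted p = 0.0879 by edgeR), which became -0.34 without day 3 replicate 1. The median of the 38 chains was -1.0, or -0.22 without it, and 4 chains were then higher and 2 lower at an unadjusted p under 0.05 (7.27% and 8.44% of all genes). Day 7 against day 0 and day 7 against day 3 share the day 7 tumors, and every comparison with day 0 uses the same day 0 tumors.

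Over the 4 treated days jointly, 9 chains had an unadjusted p under 0.05 (16.2% of all genes) and the lowest adjusted p was 0.292. Col4a4, Col17a1 and Col22a1 had the lowest values (unadjusted p = 0.00805, 0.0108 and 0.0171).

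Chains that work together did not all keep a fixed ratio. In type I, the log2 ratio of Col1a1 to Col1a2 had an SD of 0.47 over the tumors, and it was lowest at -0.39 in day 3 replicate 1 and highest at 1.42 in day 1 replicate 2. All ratios here were taken from log2 CPM with a small prior count added to every gene, and not from the printed CPM. For Col1a1 to Col1a2 the ratio was 1.80 ± 0.37 on day 0 and 1.06 ± 0.26 on day 3 (SD, n = 3 each). For Col6a1 and Col6a2, which lie near each other on chromosome 10, the SD was 0.43, and the ratio was 2.65 ± 0.07 on day 0 and 1.98 ± 0.665 on day 3 (SD, n = 3 each), while day 7 gave 3.36 ± 0.95. The type V partners Col5a1 and Col5a2 had an SD of 0.21 and ratios between 1.20 and 1.28 on all 5 days.

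Neighbors were not always the closest. Col3a1 and Col5a2, side by side on chromosome 1, had an SD of 0.35, and their ratio was 4.69 ± 0.83 on day 0 and 7.49 ± 2.62 on day 3. Col8a1 and Col8a2, which can join in 1 network, had the widest SD at 1.33. Their ratio was 101 ± 93.0 on day 3, against 325 ± 31.2 in untreated tumors and 411 ± 279 in those of day 7 (SD, n = 3). Col8a2 rested on 3 to 29 counts in all tumors but day 3 replicate 1. The prior count therefore makes these ratios lower than those of the printed CPM. The Col4a1 and Col4a2 pair, with day means from 1.33 to 1.49, was the narrowest of the 6 pairs that could be measured, as Col4a6 was too low to set beside Col4a5. These ratios share library and depth within a tumor, and no test was run on them.

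**Figure D5:**
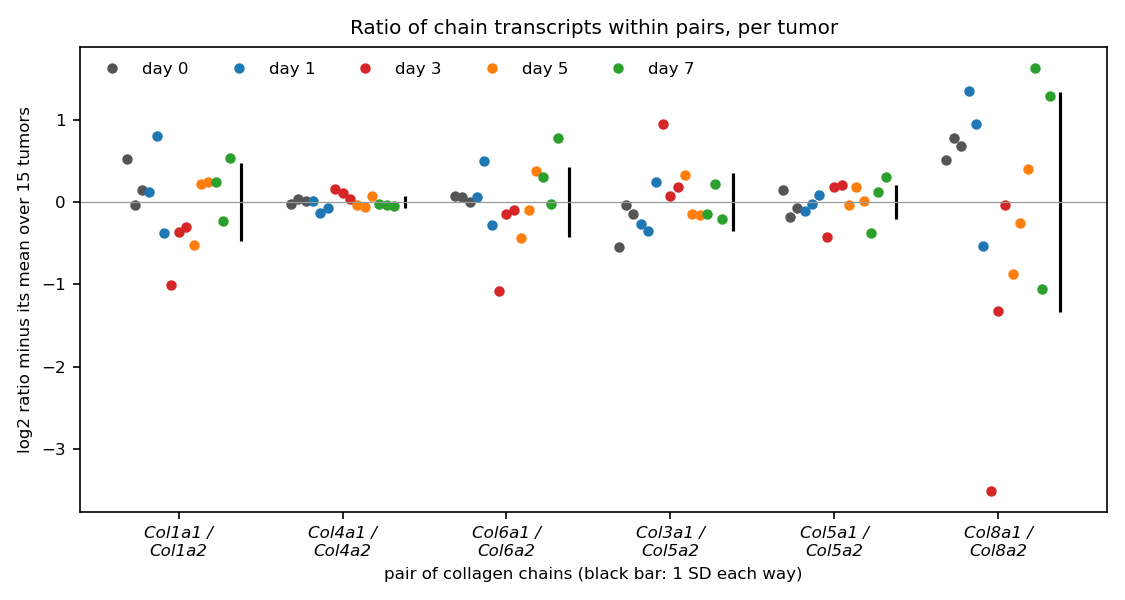
Points give the log2 ratio of 2 chains in a tumor minus its mean over the 15 tumors, for 6 pairs (horizontal axis) with the tumors colored by harvest day, and each black bar spans 1 SD either way. The Col4a1 and Col4a2 points stay on the zero line (SD 0.075), while those of Col8a1 and Col8a2 spread widely (SD 1.33), and day 3 replicate 1 is the lowest point of 4 of the pairs.

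Genes that fold and modify collagen chains were divided in direction. Of 21 such genes, 3 were higher and 5 lower on day 3 at an unadjusted p under 0.05, with a median log2 fold change of -0.07, against 18.3% of all genes higher and 11.7% lower. Without day 3 replicate 1 they were 1 and 4 (6.53% of all genes in each direction). P3h1, a prolyl hydroxylase of procollagen, had a log2 fold change of -0.29 (unadjusted p = 0.00396), and the ion channel gene Tmem38b one of 0.82 (unadjusted p = 0.00497). Serpinh1, the collagen chaperone HSP47, had 589 CPM in day 3 replicate 1, the lowest of the 15 tumors, although that tumor held 3.35% of its counts in collagen. Mia3, which exports procollagen, and P4ha2, a prolyl hydroxylase, had the lowest p on day 7, at -0.14 and 0.44. On day 7 the 21 genes had a median of -0.05, with 0 past that limit in either direction.

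Of 11 genes for trimming and cross-linking, 1 was higher and 1 lower on day 3 (18.3% and 11.7% of all genes). Without day 3 replicate 1 the counts were 0 and 2 (6.53% of all genes in each direction). On day 7 they were 0 and 1 (1.05% and 1.02% of all genes). Lox, the cross-linking lysyl oxidase, was the lower one on both days, with 504, 391 and 388 CPM on day 0, 221, 295 and 340 CPM on day 3 and 317, 322 and 317 CPM on day 7. Its 6 tumors of days 3 and 7 were all below day 0, and the log2 fold changes were -0.59 and -0.42 (unadjusted p = 0.00302 and 0.0201). Adamts2, which removes the front propeptide of fibrillar chains, had instead 273 CPM in day 3 replicate 1 against 12.3 to 25.6 CPM on day 0. Its log2 fold change of 2.55 became 0.67 without that tumor.

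Of the 13 fibril-organizing proteins, 7 were higher and 1 lower on day 3 at an unadjusted p under 0.05 (18.3% and 11.7% of all genes). Their median was 1.55. Leaving out day 3 replicate 1, 0 were higher and 2 lower (6.53% of all genes in each direction) and the median was 0.26. Fibronectin, Fn1, was the lower one, at -0.90 (unadjusted p = 0.00288), or -1.18 without that tumor, and Tnxb, a tenascin that stabilizes fibers, was at 2.95, or 1.52 without it. Among 11 basement membrane partners, 1 was higher and 2 lower on day 3, or 0 and 2 without that tumor, beside the same shares of all genes. Lamb1, a laminin chain, was at -0.50 and Lama2, the laminin of muscle, at 2.62, or 0.39 without that tumor. On day 7, 0 of these 11 had a positive log2 fold change, the median was -0.21 (-0.02 for all genes) and 0 had an unadjusted p under 0.05. Lamc1 and Hspg2, the perlecan gene, were lowest in p there, at -0.21 and -0.27. A positive day 7 value was seen for 2 of the 13 fibril-organizing genes and for 9 of the 21 folding and modification genes. The share of all genes with a positive value was not taken.

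The day 3 counts of the next 3 lists stand beside 18.3% of all genes higher and 11.7% lower. Without day 3 replicate 1 the shares were 6.53% in each direction. Of 14 genes for collagen breakdown, 3 were higher and 1 lower on day 3, or 0 and 1 without day 3 replicate 1, and 0 on day 7. The osteoclast protease gene Ctsk had a day 3 log2 fold change of 2.44, or 0.56 without day 3 replicate 1, and the uptake receptor gene Mrc2 was at -0.32 with and without it. Of 11 collagen receptors, 2 were higher and 3 lower on day 3, or 1 and 3 without that tumor, with Itgb1, the common beta chain of the collagen-binding integrins, at -0.44 (unadjusted p = 0.00386). Of 15 genes of TGF-beta signaling, a main inducer of collagen genes, 2 were higher and 5 lower on day 3, or 0 and 2 without that tumor, and 0 on day 7. Tgfb3 was at -0.69 and the receptor gene Tgfbr2 at 0.73 on day 3, or -0.80 and 0.22 without that tumor, and Tgfb1 was at 0.04 on day 3 and -0.30 on day 7 (unadjusted p = 0.822 and 0.0930).

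Markers of other cells moved with the high collagen values. Summed over 10 skeletal muscle genes, all measured, day 3 replicate 1 held 3694 CPM, against 3.2 to 191 CPM in the other 14 tumors. The 9 fibroblast markers summed to 2653 CPM in it and to 878 to 1343 CPM elsewhere, and the 8 endothelial markers to 709 CPM against 121 to 407 CPM. The pericyte and smooth muscle list (6 of 7 tested) gave 634 CPM against 68.2 to 202 CPM, the adipocyte list (8 of 9) 429 CPM against 10.2 to 72.7 CPM, and the 7 macrophage genes 7252 CPM against 1258 to 4345 CPM.

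For day 5 replicate 1, second for 18 chains, the muscle sum was 4.6 CPM, among the lowest, while its fibroblast sum of 1343 CPM and its macrophage sum of 4345 CPM were the second highest of all tumors. On day 7 the endothelial sums were 163, 238 and 121 CPM against 227 to 237 CPM on day 0, in the same order of tumors as Col4a1. The day 3 medians were 3.09 for the muscle list, 1.88 for the fibroblast list and 0.87 for the endothelial list on the log2 fold scale, and these were -0.27, 0.27 and 0.31 without replicate 1. The part of these cells in the collagen values was not tested.

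Lists of tissues with few cells here were mostly low. Of 8 keratinocyte genes Krt5, Krt14, Krt1, Krt15 and Lor were below the filter and the list summed to 8.5 to 43.0 CPM, with 14.0 and 43.0 CPM in the other day 3 tumors and 38.1 CPM in day 7 replicate 2. The highest of these, day 3 replicate 3, was also the tumor with the highest Col17a1. Of 7 cartilage and bone genes 6 were below the filter, with Acan at 0 counts in every tumor, and the list summed to at most 2.7 CPM. Tendon markers (2 of 4 tested) summed to 24.1 to 41.3 CPM apart from 68.2 CPM in day 3 replicate 1, and nerve and Schwann cell markers (4 of 5) to 9.1 to 67.4 CPM, highest in day 5 replicate 1.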

How the data were processed

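Poly(A) RNA from 15 tumors was read as 100 base single ends. The authors estimated transcript abundance with kallisto and summed it to genes on mm10 with tximport, per the methods. The transcript set and strand setting were not given in the sources used here. The deposited values are estimated counts per gene, whole numbers in 1 table with 15 columns. A single date-like entry (up to 0.0268% of counts) was left out.

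The filter kept genes with over 0.366 CPM in 3 or more tumors. Group differences were tested with edgeR 4.0.16 (R 4.3.3; TMM, quasi-likelihood, two-sided, Benjamini-Hochberg over 15494 genes), harvest day as the only term and all 15 tumors in 1 fit. Printed CPM are TMM-scaled. Alternatives were DESeq2 1.42.0, limma 3.58.1 voom with sample weights, other scalings and filters, a replicate block and leaving out each tumor. The fit was also run on simulated counts with a single fixed spread for all genes and no tumor that stood apart. That setting differs from these data, so it does not show how the fit handles day 3 replicate 1. Gene positions came from GENCODE M21 (GRCm38). The members and gene lists were chosen with earlier results of these data known. Intervals and floors cover counting error only.

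Chains with values per tumor were, by rule, the 2 of highest mean CPM and the 1 of lowest joint p in each class, and those with the 2 largest differences each way per comparison. All fibrillar, type IV and type VI chains were named with a fold change, except Col2a1 for its low counts. Of each gene list, up to 2 genes of lowest p on days 3 and 7 were candidates. Serpinh1 and the values of the remaining chains were chosen after they were seen.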

Additional observations from a re-analysis of the deposited data

How the results depend on the processing

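The counts of chains depended on the fit more than on scaling. At an adjusted p under 0.05 edgeR called 0 chains in every comparison under TMM, RLE and library totals, with or without the low-count filter, in fits to the compared groups alone and with the replicate block. DESeq2 called 6 chains on day 3, 10 on day 7 against day 3 and 2 jointly (13.5%, 21.0% and 7.84% of all genes), and limma voom with sample weights called 4 on day 3, 4 on day 5 and 10 jointly (7.65%, 15.9% and 24.9% of all genes). Leaving out each tumor in turn gave 0 to 5 chains on day 7 against day 3, the 5 without day 3 replicate 3, and 0 elsewhere. The share of all genes called in those fits was not taken, so these counts cannot be set beside it.

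At an unadjusted p under 0.05, leaving out a tumor gave 0 to 1 chains on day 1, 7 to 18 on day 3, 0 to 5 on day 5, 1 to 5 on day 7, 6 to 28 on day 7 against day 3 and 5 to 14 jointly. The lowest counts came without day 0 replicate 2 or 3 on day 3, without day 0 replicate 1 or 3 on day 5, without day 3 replicate 1 or day 7 replicate 3 on day 7 against day 3, and without day 3 replicate 1 jointly. The highest came without day 3 replicate 1 on days 5 and 7 and without day 3 replicate 2 on day 3, on day 7 against day 3 and jointly. The voom fit gave 7, 7 and 11 on days 1, 5 and 7, 9 on day 7 against day 3 and 17 jointly. Fits to the compared groups alone gave 1 on day 1, 10 on day 7 and 10 on day 7 against day 3. RLE and library totals gave 1 each on day 7. DESeq2 without day 3 replicate 1, added after the data were seen, gave 1, 5 and 6 on days 1, 5 and 7 and 6 on day 7 against day 3. Of these fits, shares of all genes were taken only for edgeR without day 3 replicate 1, on days 3 and 7 and on day 7 against day 3. On day 3 they were 6.53% in each direction, against 18.3% higher and 11.7% lower with all tumors. The counts therefore describe the fits and not the chains as a group. The cause of the differences between fits was not tested.

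The day 3 log2 fold change of Col3a1 was 1.24 and reversed to -0.16 under voom, -0.17 without day 3 replicate 1 and -0.17 by DESeq2 without it, and that of Col4a1, 0.51, to -0.13, -0.14 and -0.14. Over the left-out tumors the values ran from -0.17 to 1.64 for Col3a1 and from -0.14 to 0.83 for Col4a1. Replicate numbers did not pair the tumors: 2 of 15 correlated best with a tumor of their own number, and the median correlation of same-numbered tumors was -0.096. The fit with a replicate block gave 1 chain on day 5, 12 on day 7 against day 3 and 5 jointly at an unadjusted p under 0.05. The share of all genes was not taken for that fit either.

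With 3 tumors a day, a difference of the size of that of Col6a3 or Col22a1 did not pass adjustment over all genes. Chains under 1 CPM rest on few counts.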
